A study of Arabidopsis thaliana with 4 samples.

Results

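ROXY1, ROXY2 and ROXY18 to ROXY21 are 6 class III glutaredoxin genes of Arabidopsis thaliana, taken by their loci from a list drawn up with earlier results of these arrays known. Of the 6 genes, 5 had an array row annotated with that gene alone: ROXY1 (AT3G02000), ROXY2 (AT5G14070), ROXY19 (AT1G28480, listed as GRX480), ROXY20 (AT5G11930) and ROXY21 (AT4G33040). ROXY18 (AT1G03850, GRXS13) was not analysed here. Each of the 5 genes had 1 row, among 16548 genes in all.

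Transcript levels in roots were read from 4 Affymetrix Arabidopsis Gene 1.0 ST arrays. Each array held total RNA of 1 genotype: wild type (WT, Col), CEPD1ox, CEPD2ox or CEPDL2ox, where the suffix marks a line that overexpresses the named gene, in each case another class III glutaredoxin. Seedlings of all 4 genotypes were moved after 7 d to a medium replete in nitrogen (10 mM NH4Cl, 10 mM KNO3), kept under constant light at 22 °C and harvested at 14 d with no other treatment. The sources used here do not give the promoter of each transgene, the number of independent transformants or the number of plants behind each array. A single array per genotype leaves no replicate spread and allows no test, so each difference below is between 2 arrays and was not repeated. The values are log2 signals as deposited, and a log2 ratio is the signal of a line minus that of WT, so that 1 is a 2-fold difference.

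Class III glutaredoxins, also called CC-type or ROXY proteins, are small redox-type proteins found in land plants. Many of them bind TGA transcription factors, bZIP proteins that act on promoters of development, defence and detoxification genes, and a motif at the end of many ROXY proteins recruits TOPLESS co-repressors. ROXY1 and ROXY2 are known from the flower, where ROXY1 controls petal formation and the pair acts redundantly in anther development. ROXY19 is known as a gene induced by salicylic acid whose product can repress jasmonate and ethylene defence genes through TGA factors. CEPD1, CEPD2 and CEPDL2 belong to the same class and are known as mobile signals that carry nitrogen demand from shoot to root.

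The arrays were alike as a whole, with Pearson's r of 0.983 to 0.984 across all rows, which are not independent replicates. Genes were kept where the highest of the 4 signals reached 2.78, the 25th percentile of all gene values, which left 13232 genes, among them all 5 ROXY genes with a row. The root markers PYK10, a root β-glucosidase, and EXPA7 and EXPA18, root hair expansins, gave signals of 6.58 or above on every array, and the other 4 markers on the root list were not analysed here. Of 7 flower and anther genes, 2 had a row: SPL, a regulator of sporogenesis, lay between 2.22 and 2.80, and AMS, a regulator of tapetum development, lay between 3.12 and 3.32. CEPD2 stood at 9.22 in CEPD2ox against 1.41 in WT, and CEPDL2 at 5.49 in CEPDL2ox against 3.46. CEPD1 stood at 3.04 on the array labelled CEPD1ox against 2.66 in WT, so the targeted gene did not bear out that label, and every direction drawn from the array labelled CEPD1ox carries this limit. CEPH (AT4G32950), which encodes a type 2C phosphatase, differed from WT on that array in the same direction as on the others, with log2 ratios of 1.78 for the array labelled CEPD1ox, 2.21 for CEPD2ox and 3.84 for CEPDL2ox.

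ROXY1, the petal and anther gene, gave nearly the same low signal in all genotypes. In WT its log2 signal was 3.24, next to 3.36 for the array labelled CEPD1ox, 3.18 for CEPD2ox and 3.41 for CEPDL2ox. The 4 values spanned 0.23 on the log2 scale, the smallest span of the 5 genes. The log2 ratios to WT were 0.12, -0.06 and 0.17 for CEPD1ox, CEPD2ox and CEPDL2ox. Among the 3226 kept genes with a mean signal under 4, the SD of the difference from WT was 0.45 for CEPD1ox, 0.45 for CEPD2ox and 0.44 for CEPDL2ox, and the 3 ratios of ROXY1 lay within it.

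ROXY2, the partner of ROXY1 in the anther, was lowest in WT and higher in each line, and highest in CEPD2ox. Log2 signals were 2.06 for WT, 2.83 for the array labelled CEPD1ox, 3.61 for CEPD2ox and 3.12 for CEPDL2ox. They correspond to 1.70, 2.92 and 2.08 times the WT signal in the respective lines. The WT value lies below the filter value of 2.78 and the CEPD1ox value close to it, so the gene was kept for its signals in the lines and its folds are set against a level near background. The lines also differed among themselves: CEPD2ox was 1.72-fold above CEPD1ox and 1.40-fold above CEPDL2ox. ROXY2 was the only one of the 5 genes past 2-fold from WT, in CEPD2ox and in CEPDL2ox. Among all kept genes, 0.506% were at least 2-fold higher than WT in CEPD2ox and 0.771% in CEPDL2ox. Among kept genes with a mean signal under 4, where ROXY2 lies with a mean of 2.91, these shares were 1.61% and 1.58%. On the array labelled CEPD1ox 0 of the 5 genes were 2-fold higher, against 0.733% of all kept genes. No ROXY gene was 2-fold lower in any line, against 0.476%, 0.393% and 0.491% of the kept genes in CEPD1ox, CEPD2ox and CEPDL2ox. No ROXY gene passed 2-fold in all 3 lines, where 0.068% of the kept genes were higher and 0.068% lower.

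ROXY19, the gene linked to salicylic acid and jasmonate signalling, was also lowest in WT. In WT the log2 signal of ROXY19 was 2.46, next to 2.81 for the array labelled CEPD1ox, 3.00 for CEPD2ox and 3.41 for CEPDL2ox. The folds over WT were 1.27, 1.45 and 1.94 for CEPD1ox, CEPD2ox and CEPDL2ox, all short of 2-fold. The WT value lay below the filter value and the CEPD1ox value just above it, so these folds too are set against a level near background. ROXY19 and ROXY2 had a ratio above 0 in every line, as did 24.3% of all kept genes, where the 3 ratios of a gene share 1 WT value. They differed in the line with the highest signal, which was CEPDL2ox for ROXY19 and CEPD2ox for ROXY2. On the same arrays the photosynthesis genes RCA (Rubisco activase) and PRK (phosphoribulokinase), the 2 of 7 shoot markers with a row, were highest in WT. RCA ran from 5.66 to 6.31 and PRK from 2.47 to 4.58, and their part in the ROXY results was not tested.

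**Figure D1:**
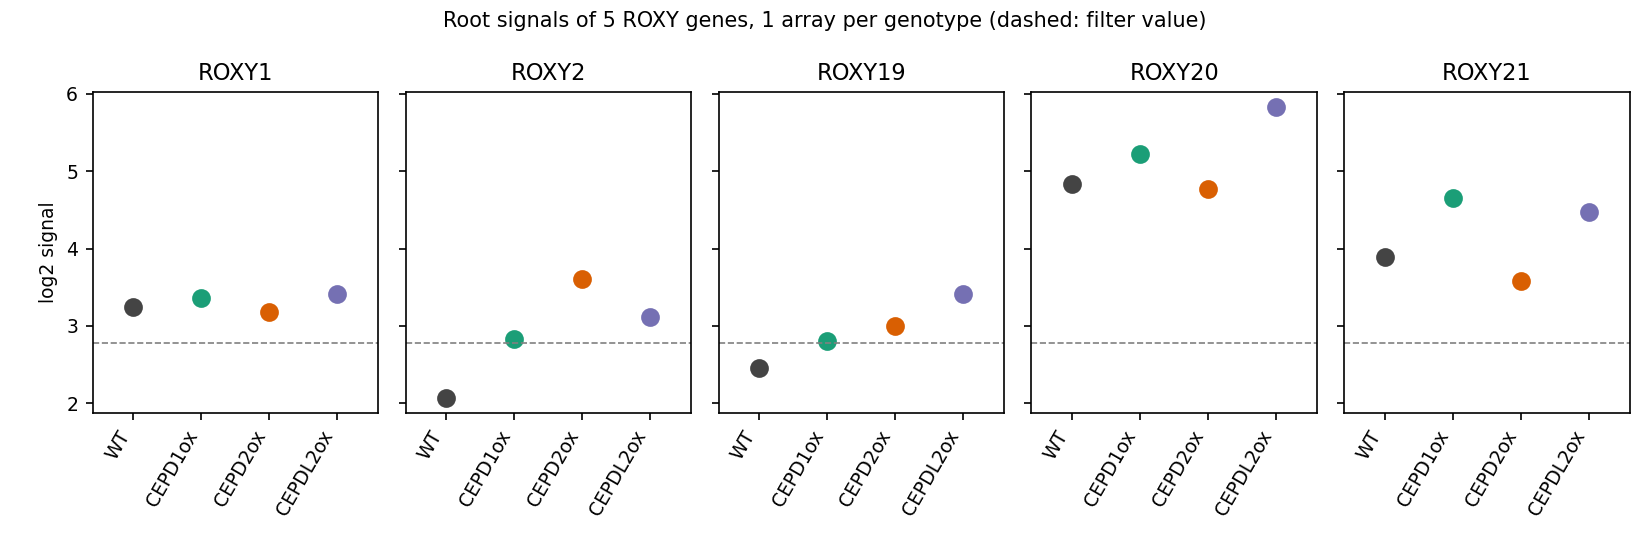
Log2 signal of ROXY1, ROXY2, ROXY19, ROXY20 and ROXY21 (1 panel each) in roots of WT, CEPD1ox, CEPD2ox and CEPDL2ox, 1 point per array. The dashed line is the filter value of 2.78; ROXY2 and ROXY19 lie below it in WT and above it in the lines, while ROXY1, ROXY20 and ROXY21 are lowest in CEPD2ox.

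ROXY20, a class III gene for which no role is given here, was highest in CEPDL2ox and close to WT in CEPD2ox. In WT the log2 signal of ROXY20 was 4.84, next to 5.22 for the array labelled CEPD1ox, 4.77 for CEPD2ox and 5.83 for CEPDL2ox. All 4 values lie above the filter value. The log2 ratio to WT was 0.38 for CEPD1ox, -0.07 for CEPD2ox and 0.996 for CEPDL2ox, the last just short of 2-fold. CEPDL2ox was 2.09-fold above CEPD2ox, a difference that does not use the WT array. Among all kept genes 0.65% were at least 2-fold higher in CEPDL2ox than in CEPD2ox. Among the 3801 kept genes with a mean signal from 4 to under 6, the SD of the difference between CEPDL2ox and WT was 0.34 and 1.08% were at least 2-fold higher.

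ROXY21, likewise given without a role, was higher than WT in CEPD1ox and CEPDL2ox and lower than WT in CEPD2ox. In WT the log2 signal of ROXY21 was 3.89, next to 4.65 for the array labelled CEPD1ox, 3.58 for CEPD2ox and 4.47 for CEPDL2ox. The folds relative to WT were 1.69 in CEPD1ox, 0.802 in CEPD2ox and 1.49 in CEPDL2ox. At a mean signal from 4 to under 6, the SD of the difference from WT was 0.32, 0.31 and 0.34 in the same order. The log2 ratio of -0.32 in CEPD2ox was about as large as that SD. CEPD1ox and CEPDL2ox lay close together, 0.18 apart on the log2 scale, and both lay above WT and CEPD2ox. CEPD2ox stood 2.10-fold below CEPD1ox, and 0.68% of all kept genes were at least 2-fold lower in CEPD2ox than in CEPD1ox. That comparison rests on the array labelled CEPD1ox, on which CEPD1 was not clearly raised. CEPDL2ox was 1.86-fold above CEPD2ox.

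**Figure D2:**
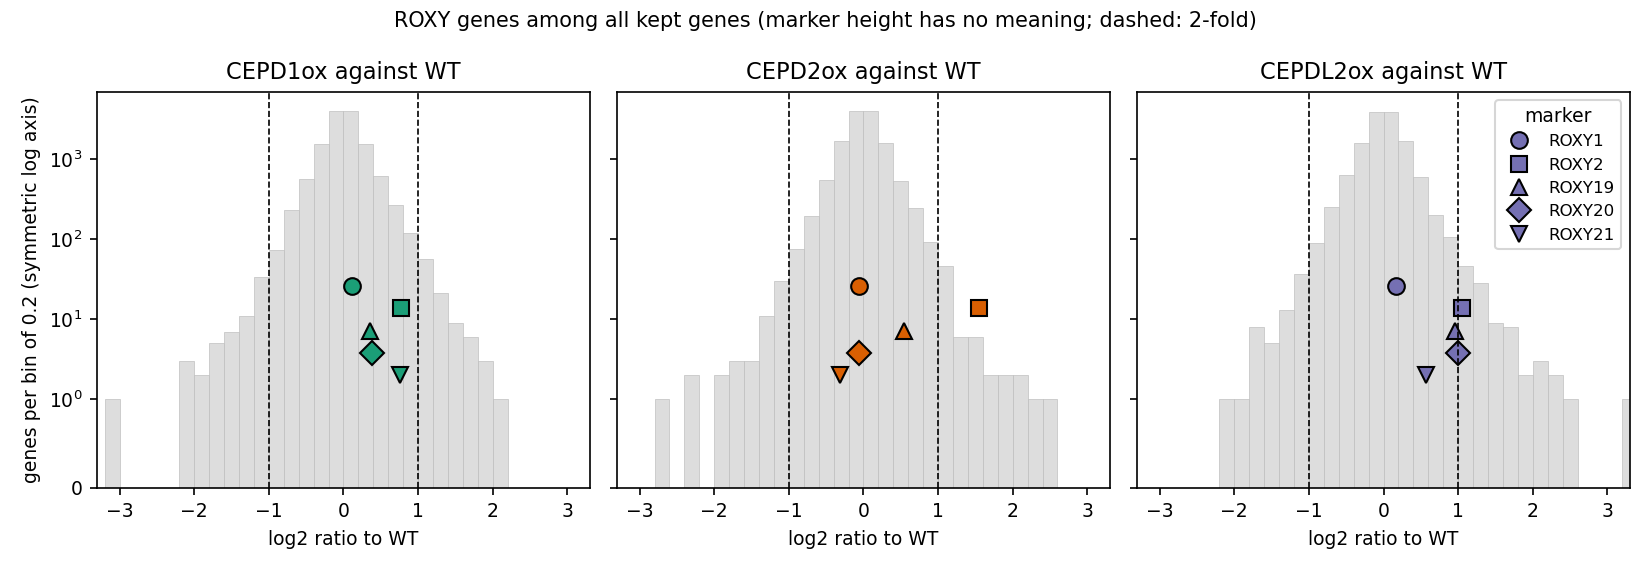
Number of kept genes (symmetric log axis) per bin of the log2 ratio to WT in CEPD1ox, CEPD2ox and CEPDL2ox, with the 5 ROXY genes as markers whose height has no meaning; ratios above about 3 are beyond the axis. Dashed lines mark 2-fold; ROXY2 lies past it in CEPD2ox (log2 ratio 1.55) and CEPDL2ox (1.06), and ROXY19 and ROXY20 lie just inside it in CEPDL2ox.

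The genotype with the lowest signal split the 5 genes into 2 patterns, while the full order of the genotypes differed within each pattern. ROXY2 and ROXY19 were lowest in WT. ROXY1, ROXY20 and ROXY21 were lowest in CEPD2ox, with WT next and CEPD1ox and CEPDL2ox above both. Being lowest in WT held for 24.5% of all kept genes and being lowest in CEPD2ox for 26.7%. Neighbours in these orders were often closer than the SD between arrays at such signals: WT and CEPD2ox differed by 0.06 for ROXY1 and by 0.07 for ROXY20, and CEPD1ox and CEPD2ox by 0.19 for ROXY19. The signals of ROXY2, ROXY20 and ROXY21 spanned at least 2-fold over the 4 arrays (1.55, 1.06 and 1.07 on the log2 scale) and that of ROXY19 spanned 0.95. Such a span was seen in 4.42% of all kept genes, in 12.8% of those with a mean signal under 4 and in 3.53% of those from 4 to under 6. The median log2 ratio of the 5 genes was 0.38 in CEPD1ox, -0.06 in CEPD2ox and 0.95 in CEPDL2ox, beside 0.0024, -0.0013 and 0.00024 over all kept genes. These medians and counts describe genes chosen with earlier results known, and ROXY2 and ROXY19 passed the filter only through the lines.

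**Figure D3:**
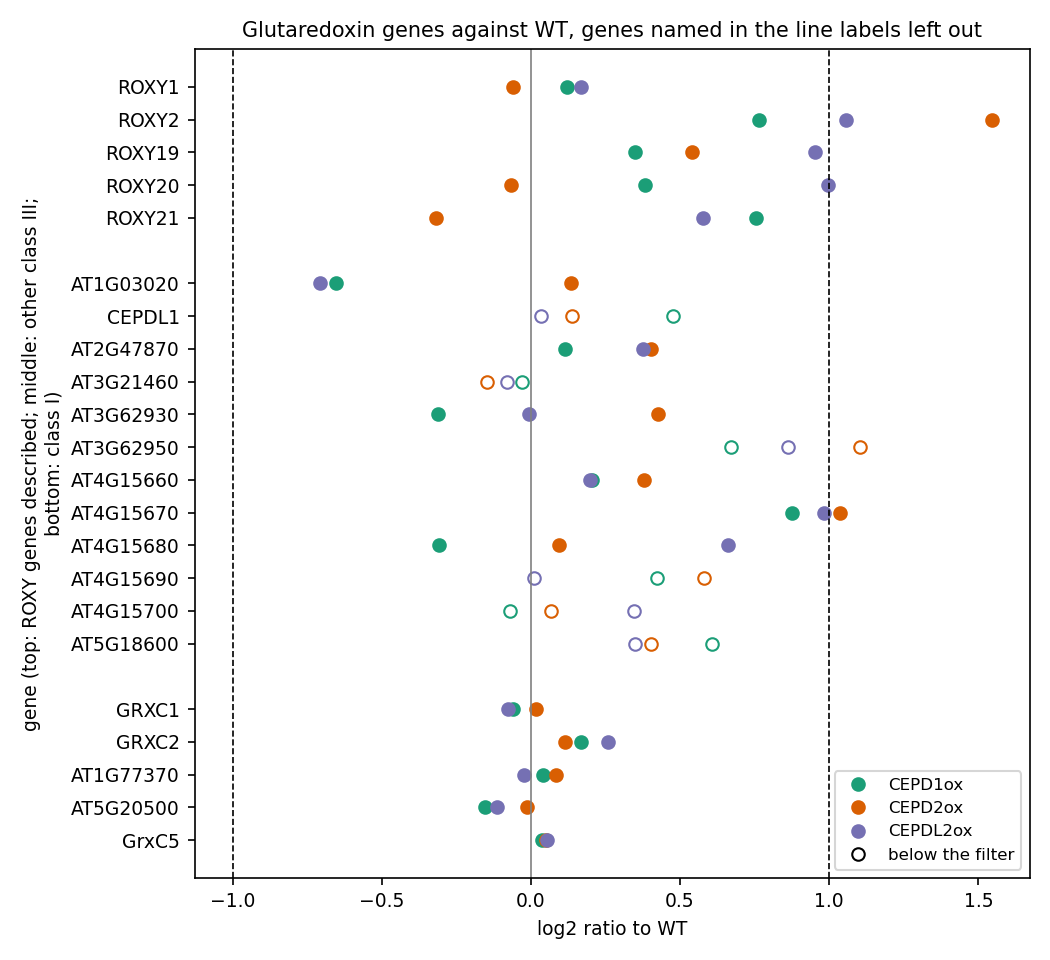
Log2 ratio to WT of 22 glutaredoxin genes with a row of their own (CEPD1, CEPD2 and CEPDL2, named in the line labels, left out), 1 point per line, open where the gene lay below the filter value on all 4 arrays. The class I genes at the bottom, with signals of 5.44 to 9.76, stay between -0.15 and 0.26. The ROXY genes at the top, with signals of 2.06 to 5.83, reach from -0.32 to 1.55.

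The other class III glutaredoxins gave a base for comparison. All 15 had a row, and 9 passed the filter, among them the 3 genes named in the line labels, CEPD1, CEPD2 and CEPDL2. Without those 3, 12 genes remained, with ratios between -0.71 and 1.10, and their median log2 ratio was 0.16 in CEPD1ox, 0.39 in CEPD2ox and 0.27 in CEPDL2ox. In CEPD2ox 2 of the 12 were at least 2-fold higher than WT, AT3G62950 at 1.10 and AT4G15670 at 1.04, and 0 in the other lines. Of all 16548 genes, with no filter, 0.532% were at least 2-fold higher in CEPD2ox, 0.707% in CEPD1ox and 0.683% in CEPDL2ox. AT3G62950 lay below the filter value on all arrays, and AT4G15670 did so in WT, at 2.10. Of the 12 genes 7 had their highest signal in CEPD2ox, the place also taken by ROXY2. Of all 16548 genes, with no filter, 24.8% did so. Of the 6 genes among the 12 that passed the filter, 5 did so, beside 24.5% of all kept genes. That count depends in part on the filter. AT4G15660 passed it only in CEPD2ox, at 2.79, so its highest signal there followed from its being kept. AT4G15670 passed only through the lines. The other 6 of the 12 lay below the filter value on every array. ROXY1, ROXY20 and ROXY21 had their lowest signal in CEPD2ox, as did 26.7% of all kept genes, 1 of the 12 and CEPD1, at 2.19. Their log2 ratios to WT there were only -0.06 for ROXY1 and -0.07 for ROXY20, and -0.32 for ROXY21. The SD of that difference was 0.45 at signals like those of ROXY1 and 0.31 at those of ROXY20 and ROXY21. No test of these orders was possible with 1 array a genotype. These genes are paralogs of the genes named in the line labels, and whether a row's probes also bind transcripts of a paralog was not tested.

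The signals of the class I glutaredoxins with a row spanned less over the 4 arrays than those of the ROXY genes other than ROXY1. This did not hold in each line, since in CEPD2ox ROXY20, at -0.07, was nearer to WT than GRXC2. Of 10 class I and class II genes, 5 of class I had a row, with signals between 5.44 and 9.76. GRXC2, a cytosolic glutaredoxin, stood at 5.83 in WT, with log2 ratios of 0.17, 0.12 and 0.26 in CEPD1ox, CEPD2ox and CEPDL2ox. GRXC1 stood at 5.52, 5.46, 5.53 and 5.44 in the order WT, CEPD1ox, CEPD2ox and CEPDL2ox. Both had a mean signal from 4 to under 6, as ROXY20 had, whose signals spanned 1.06 against 0.26 for GRXC2 and 0.09 for GRXC1. Over the 5 genes the ratios ran from -0.15 to 0.26, and 0 were 2-fold from WT in any line. Arrays differed less at high signals, which limits the comparison with ROXY genes of low signal. The SD of the difference between CEPD2ox and WT was 0.19 at a mean signal of 6 or above and 0.45 under 4.

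Genes that ROXY proteins act with or on could be read in few cases. None of the 10 TGA factors, 5 TOPLESS-type co-repressors and 8 salicylic acid response genes on the lists was analysed here. Of 6 jasmonate and ethylene defence genes, PDF1.2, a defensin gene of the branch that ROXY19 can repress, had a row. It lay below the filter value on all arrays, at 1.48 in WT, 2.61 in CEPD1ox, 1.28 in CEPD2ox and 1.03 in CEPDL2ox, so no order was read from it. Of 7 detoxification genes that depend on TGA factors, GSTU25, a glutathione transferase gene, had a row, with signals of 6.53, 6.59, 6.63 and 7.07 in WT, CEPD1ox, CEPD2ox and CEPDL2ox. It was lowest in WT and highest in CEPDL2ox, with the genotypes in the order seen for ROXY19, and its largest log2 ratio was 0.55. Its other ratios, 0.06 in CEPD1ox and 0.10 in CEPD2ox, lay within the SD at a mean signal of 6 or above. That SD was 0.20 for CEPD1ox and 0.19 for CEPD2ox, so the order below CEPDL2ox carries little weight. A link with ROXY19 was not tested.

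The 3 kept genes nearest in profile were found for the ROXY genes whose signals spanned at least 2-fold, by the Euclidean distance over the 4 arrays after centring each gene on its mean. For ROXY2 these were AT3G46340, AT1G08440 and AT4G08430, at distances of 0.15, 0.16 and 0.22. All 3 had WT signals below the filter value, between 2.15 and 2.66, as ROXY2 had. For ROXY20 they were AT2G14760, AT5G49850 and AT5G23370, at 0.031, 0.045 and 0.079. The nearest, AT2G14760, passed the filter value only in CEPDL2ox, at 3.21. AT5G49850 had signals of 6.18, 6.51, 6.11 and 7.16 in WT, CEPD1ox, CEPD2ox and CEPDL2ox, and AT5G23370 signals of 4.99, 5.35, 4.97 and 5.92, both well above the filter value. For ROXY21 they were AT3G28420, AT5G24190 and AT2G17850, at 0.077, 0.16 and 0.19, of which AT2G17850 lay between 5.19 and 6.06. AT3G28420 and AT5G24190 lay below the filter value in WT and in CEPD2ox. With 4 arrays and 13231 other genes to choose from, close profiles are easily found, and the distances are a description. Among the ROXY genes themselves, the nearest pair was ROXY19 and ROXY20, 0.55 apart, which crosses the split by lowest genotype. ROXY20 and ROXY21 lay 0.60 apart, ROXY1 and ROXY19 0.61, ROXY1 and ROXY20 0.68, ROXY1 and ROXY21 0.69 and ROXY2 and ROXY19 0.78. The other 4 pairs lay between 0.93 and 1.52 apart, and all 4 crossed that split. The distances thus followed the split only in part, since ROXY19 lay nearer to ROXY20 than to ROXY2. Ranks among the other kept genes, counted from the first gene of a pair, gave a different order. They were 322 for ROXY2 and ROXY19, 841 for ROXY20 and ROXY21 and 1504 for ROXY19 and ROXY20. For ROXY1 and ROXY19 the rank was 11647, so most kept genes lay nearer to ROXY1 than ROXY19 did.

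**Figure D4:**
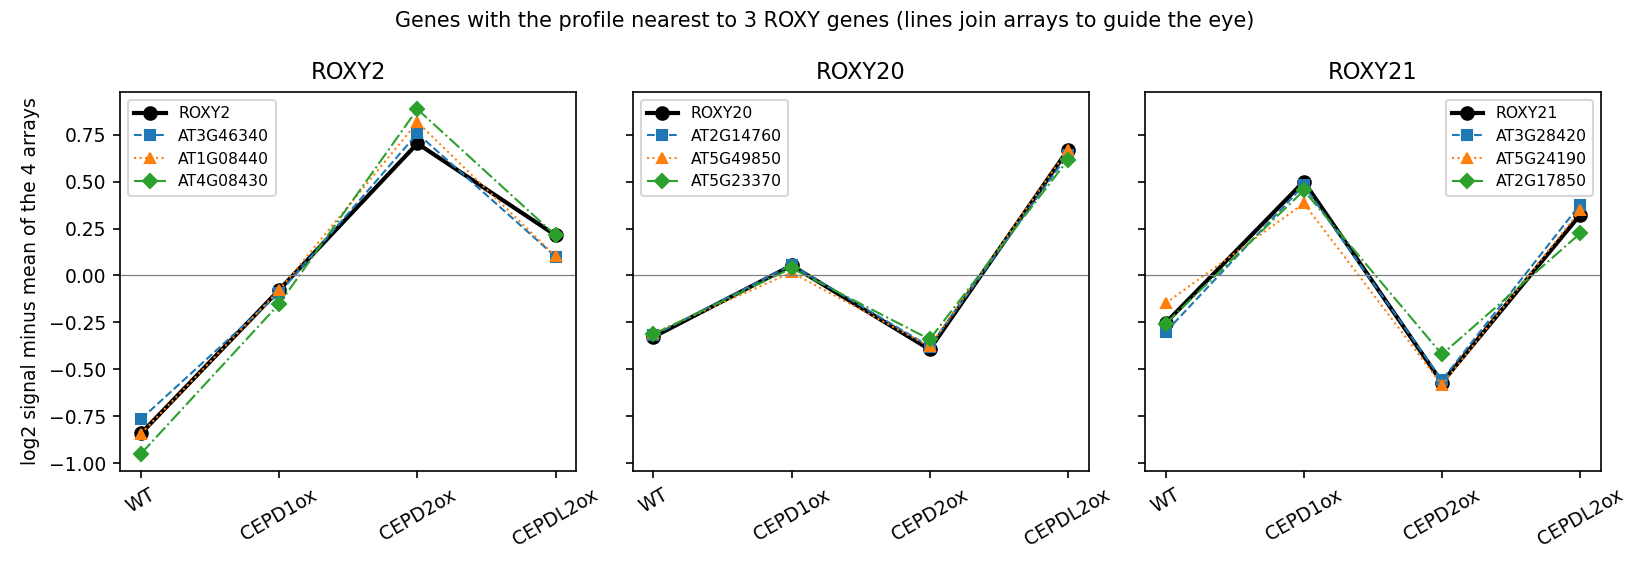
Log2 signal minus the gene's mean over the 4 arrays, for ROXY2, ROXY20 and ROXY21 (black) and the 3 kept genes nearest to each in profile; each point is 1 array and lines only guide the eye. ROXY2 and its nearest genes are lowest in WT and highest in CEPD2ox, ROXY20 and its nearest genes highest in CEPDL2ox, and ROXY21 and its nearest genes lowest in CEPD2ox.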

How the data were processed

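The authors deposited 1 table of log2 signals per array row, with Expression Console 1.3 named as the tool in the submitters' processing notes. Summarization, normalization and genome build are not given in the sources, and the log2 base was inferred from the range of values, 0.431 to 13.8. Values were used as deposited. Array signals near background understate differences in RNA, and the number of arrays limits the precision.

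The platform annotation named 1 gene for 16722 of 38408 rows, several for 759 and none for 20927. Names were updated through the TAIR10.1 gene table, which matched 16714 rows; names with the prefixes ROXY and CEPD that it lacks come from knowledge of the loci. Of several rows for a gene, the one brightest on average was used. Genes below the 25th percentile on all arrays were left out. Called means at least 2-fold from WT.

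The members, gene lists and signal ranges were chosen with earlier results of these data known. Named were the members, list genes with a row, and the 3 genes nearest in profile to members spanning 2-fold. No test was made, since each genotype had 1 array. The counting was tested on simulated data. Alternatives were 3 normalizations, thresholds of 1.5-fold and 3-fold, other filters, the mean over rows and leaving out a line. Computations used Python 3.11.15, numpy 2.4.6, pandas 2.3.3, R 4.3.3 and limma 3.58.1.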

Additional observations from a re-analysis of the deposited data

Results flagged for a closer look

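In 3 genes the log2 ratio to WT was above 0 in 1 line and below 0 in another, so they were flagged. Of the 13232 kept genes, 3214 exceeded WT in all 3 lines and 3199 fell short of WT in all 3. Mixed signs were thus common among the kept genes and do not by themselves set these 3 apart. The difference between the highest and the lowest ratio was 1.07 for ROXY21 (CEPD1ox against CEPD2ox), 1.06 for ROXY20 (CEPDL2ox against CEPD2ox) and 0.23 for ROXY1 (CEPDL2ox against CEPD2ox). These differences were not tested, since each line had 1 array. In each of the 3 genes the negative ratio belonged to CEPD2ox, at -0.32, -0.07 and -0.06 for ROXY21, ROXY20 and ROXY1, so the same array enters all 3.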

How the results depend on the processing

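The 15 log2 ratios of the ROXY genes kept their sign under the 3 other normalizations and moved by at most 0.050. The mean over rows could not change these ratios or the genotype order, since each of these genes had 1 row. ROXY2 in CEPD2ox ran from 1.52 to 1.57 and in CEPDL2ox from 1.02 to 1.06, and ROXY20 in CEPDL2ox from 0.970 to 0.996. The order of the genotypes held for all 5 genes, except that it held for 4 when the arrays were shifted to the same median. At 1.5-fold, 2 ROXY genes were higher in CEPD1ox and 3 in CEPDL2ox, and 1 in all 3 lines; at 3-fold, 0 were higher in CEPD2ox and 0 in CEPDL2ox. With a filter at the median, 0 were higher in either, since ROXY2 was left out. Without requiring CEPD1ox, 1 ROXY gene, ROXY2, was 2-fold higher in all lines left. Among all kept genes, 520, 436 and 434 were higher at 1.5-fold in CEPD1ox, CEPD2ox and CEPDL2ox, and 396, 348 and 443 lower; at 3-fold these were 10, 10 and 18 higher and 11, 8 and 10 lower; with the median filter 17, 13 and 43 higher and 17, 12 and 9 lower. In all 3 lines, 58 were higher and 57 lower at 1.5-fold, 3 and 2 at 3-fold, and 4 and 3 with the median filter. With CEPD1ox, CEPD2ox or CEPDL2ox not required, 18, 20 and 17 were higher; 14 were lower without CEPD2ox and 15 without CEPDL2ox. Looser or stricter rules change these counts by construction. Signal near background limits ROXY1, ROXY2 and ROXY19. No paired analysis was possible because each genotype had 1 array and no result comes from a test.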

Other observations

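The genes next to the ROXY genes on the chromosome were read after the ROXY values had been seen, in the order of protein-coding genes in the TAIR10.1 gene table. Of 12 neighbours, 3 had a row. The neighbour of ROXY20, cwINV6 (AT5G11920), a cell wall invertase family gene, had signals of 6.87 in WT, 7.27 in CEPD1ox, 7.05 in CEPD2ox and 7.60 in CEPDL2ox. Its log2 ratios of 0.40, 0.18 and 0.73 in CEPD1ox, CEPD2ox and CEPDL2ox stand beside 0.38, -0.07 and 0.996 for ROXY20. CEPDL2ox was highest and CEPD1ox next in both genes, but cwINV6 was lowest in WT and ROXY20 in CEPD2ox. The other neighbour of ROXY20, AT5G11940, lay below the filter value on all arrays. AT5G14080, the neighbour of ROXY2, was lower than WT in each line, with ratios of -0.25, -0.22 and -0.47, while ROXY2 was higher in each.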
